A study of Mus musculus with 219 samples.

Results

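The oocyte-specific homeobox (Obox) genes of the mouse were followed from single blastomeres of early 2-cell embryos to single blastocysts. The members were chosen by symbol, as the 5 genes Obox1, Obox2, Obox3, Obox5 and Obox6 among 32285 genes in the count tables. A further 3 rows carried a symbol that starts with Obox, of which Obox7 held 27051 reads, Obox8 7380 reads and Obox4-ps35 3524 reads in the blastomeres analysed.

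Oocytes of superovulated young adult B6C3F1 females were fertilized by intracytoplasmic sperm injection (ICSI) with CD1 sperm heads. The sperm was placed opposite to the meiotic spindle (contralateral ICSI, the V pole), beside the spindle (ipsilateral ICSI, the A pole, called isolateral in the labels) or between both (equatorial ICSI). No genotype, allele or agent differed between the groups, all of which carried the B6C3F1xCD1 genotype and went through the same superovulation, injection and culture in KSOM medium. The embryos were bisected within hours of the first cleavage, and both sister blastomeres were sequenced singly, while further embryos gave twin blastocysts (1 from each separated blastomere) or were left intact until the blastocyst stage.

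The comparison rested on 55 sister pairs, or 110 blastomeres, of which 21 pairs came from contralateral, 21 from ipsilateral and 13 from equatorial ICSI. The blastocysts were 38 twins of 19 embryos and 31 intact blastocysts. Total counts ranged from 360474 to 2100561 per blastomere and from 234099 to 2161062 per blastocyst. Plate 1 held 42 of the pairs and plate 2 held 13, together with all blastocysts. Equatorial embryos had the fewest detected genes, 11565 ± 665 (SD, n = 11 embryos) on plate 1 against 12072 ± 558 (n = 18) after contralateral and 12417 ± 419 (n = 13) after ipsilateral ICSI. The stages could be told apart by the sums of their markers. All 6 oocyte and 2-cell markers were counted in blastomeres, at a summed 3235 to 7220 CPM (counts scaled to the library total). The 8 blastocyst markers summed to 2551 to 5210 CPM in intact blastocysts and to at most 292 CPM in blastomeres. Taken singly, 7 of these 8 were called lower and 1 higher in 2-cell embryos than in intact blastocysts (edgeR, adjusted p below 0.05). Of the 8 markers of cumulus and granulosa cells, Amh and Inha were at 0 in every blastomere, and the sum had a median of 13.9 CPM and a maximum of 79.8 CPM. The labels do not tie embryos to mothers or injection days, so p-values measure the spread between these embryos only.

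Obox genes code for homeodomain proteins that are found in rodents and lie in a cluster on mouse chromosome 7. Obox1, Obox2, Obox5 and Obox7 are known as maternal members, whose transcripts are stored in the growing oocyte. Obox3 is known as a zygotic member, transcribed from the embryonic genome at the 2-cell stage, and the family is known for its part in zygotic genome activation, the first transcription of the embryo. Obox6 is best known as a factor that raises the yield of pluripotent cells in reprogramming.

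In GENCODE M21 on GRCm38, all 5 members are protein-coding genes of chromosome 7. Obox2 (ENSMUSG00000074369) lies on the plus strand at chr7:15388721-15398545. Obox1 (ENSMUSG00000054310) is annotated on the same strand at chr7:15388948-15556866, so that its interval runs across Obox2 except for the first bases of that gene. Obox5 (ENSMUSG00000074366) follows on the plus strand at chr7:15750131-15759800. Obox3 (ENSMUSG00000066772) at chr7:15479825-15639902 and Obox6 (ENSMUSG00000041583) at chr7:15833241-15839678 lie on the minus strand. The interval of Obox1 also overlaps that of Obox3. Reads were counted without strand.

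The promoters of the members are shown for their sequence, and their part in the transcript levels was not tested. RefSeq (GRCm38.p6) gave a promoter for 4 of the 5 members, not for Obox6. Each window below runs 5′ to 3′ on the strand of the gene, from 250 bases before the transcription start to 30 bases after it, and the capitals mark a stretch of 25 bases that the 4 promoters have in common. The windows are chr7:15547007-15547286 for Obox1, chr7:15388601-15388880 for Obox2 and chr7:15750120-15750399 for Obox5, on the plus strand, and chr7:15639748-15640027 for Obox3, on the minus strand.
Obox1: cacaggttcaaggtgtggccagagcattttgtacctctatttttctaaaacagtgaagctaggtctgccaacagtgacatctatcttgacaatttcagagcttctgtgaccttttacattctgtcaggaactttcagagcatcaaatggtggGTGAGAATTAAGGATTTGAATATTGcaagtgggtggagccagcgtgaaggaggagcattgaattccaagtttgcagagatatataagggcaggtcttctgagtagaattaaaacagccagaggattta
Obox2: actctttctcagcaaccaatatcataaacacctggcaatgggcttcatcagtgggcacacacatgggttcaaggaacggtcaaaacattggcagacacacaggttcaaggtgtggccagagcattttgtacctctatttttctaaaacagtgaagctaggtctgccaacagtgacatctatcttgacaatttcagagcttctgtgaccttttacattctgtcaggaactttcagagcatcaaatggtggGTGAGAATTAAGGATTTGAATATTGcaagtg
Obox5: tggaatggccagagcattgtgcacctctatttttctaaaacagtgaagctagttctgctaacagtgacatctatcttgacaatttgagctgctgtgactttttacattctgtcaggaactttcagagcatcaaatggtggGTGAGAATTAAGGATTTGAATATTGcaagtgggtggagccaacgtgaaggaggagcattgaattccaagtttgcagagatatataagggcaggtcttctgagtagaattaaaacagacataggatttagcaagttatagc
Obox3: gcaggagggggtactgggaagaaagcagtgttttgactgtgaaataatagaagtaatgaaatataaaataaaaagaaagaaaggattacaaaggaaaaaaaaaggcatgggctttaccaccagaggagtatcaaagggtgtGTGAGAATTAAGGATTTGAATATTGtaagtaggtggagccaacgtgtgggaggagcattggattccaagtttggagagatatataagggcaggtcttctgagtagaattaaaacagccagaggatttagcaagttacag
Counted from the annotated start, the capitals began at base -98 in Obox1, -110 in Obox5 and -1 in Obox2. Among 32817 promoters of 300 bases (250 before to 50 after the start), this stretch occurred in 5, those of the 4 members and of Obox7. The promoters of Obox1 and Obox2 were identical over the 203 bases that could be aligned, those of Obox1 and Obox5 were 95.5% identical over 288 bases, and those of Obox1 and Obox3 were 81.5% identical over 270 bases. The letters TAATCC, a core of sites of some paired-like homeodomain proteins, were searched on both strands of the 300 bases. They occurred in Obox3 alone among the 4, once, against 7.06% of all promoters. The letters TAATTA occurred in none of the 4 (5.30% of all promoters) and TATAAA in Obox3 alone (13.6%). TATATAAG occurred in Obox1, Obox5 and Obox3 but not in Obox2 (1.01%), in promoters that are alike in sequence. No match says only that the letters are not in this window.

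Members with near-identical copies cannot be counted with equal certainty. Of all stretches of 100 bases in the transcripts of Obox6, 100% occurred in no other gene of the annotation, and the share was 98.2% for Obox5 and 91.1% for Obox3. It was 57.7% for Obox1 and 52.8% for Obox2, and the stretches they lacked were those they have in common with each other. The split of reads between Obox1 and Obox2 is therefore uncertain. The mapping options given by the study name no rule for reads that match both genes. Its results give the depth of the blastomeres in uniquely mapped reads, so reads that match both may have been left out. If such reads were left out, both genes and their sum were undercounted, and their levels per transcript length were too low.

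All 5 members were counted in 110 of 110 blastomeres. Per transcript length, Obox5 was the most abundant, with a mean of 1885 TPM (counts per exonic length, scaled to the library), at rank 40 of 32235 genes by mean TPM. It was followed by Obox1 at 731 TPM (rank 145), Obox6 at 413 TPM (rank 384), Obox2 at 298 TPM (rank 611) and Obox3 at 228 TPM (rank 866). The first step in this order had no exception, with Obox5 above Obox1 in 55 of 55 embryos and 110 of 110 blastomeres. The lower steps did not separate every embryo: Obox1 lay above Obox6 in 47, Obox6 above Obox2 in 38, and Obox2 above Obox3 in 40 of 55 embryos. The ranks of Obox1 and Obox2, their places in this order and the shares of all 5 members hold only if reads that match both genes were counted. If they were left out, the share of Obox5 given next was too high. Of the summed TPM of the 5 members, Obox5 made up 53.5% ± 5.27 (SD, n = 55 embryos). Its share was 58.4% ± 4.93 (n = 13) after equatorial ICSI, where that of Obox1 was 16.8% ± 4.36, against 52.4% ± 5.08 and 22.2% ± 3.27 (n = 21) after contralateral ICSI. The depth behind these levels was a median of 1661 reads per blastomere for Obox5 (lowest 425), 604 for Obox1 (lowest 39), 279 for Obox3 (lowest 13), 214 for Obox2 (lowest 8) and 211 for Obox6 (lowest 24).

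The study asked whether the site of fertilization leaves a mark on gene expression, and the ICSI groups were therefore compared with the counts of both sisters added per embryo. Among the maternal members, Obox1 and Obox2 were higher after ICSI at either pole than after equatorial ICSI, and Obox5 was higher after contralateral ICSI, with smaller changes. The zygotic member Obox3 and Obox6 did not pass the test. The log2 fold changes of Obox3, 0.55 ± 0.24 and 0.44 ± 0.24, were larger than those of Obox5, 0.24 ± 0.07 and 0.13 ± 0.07, but less precise. Whether maternal and zygotic members differ in their changes was not tested. Between the poles, 0 of 5 members passed the edgeR test. By the well labels of the blastomeres, each ICSI group filled its own rows of wells on each plate. Site and row of wells can therefore not be told apart in these comparisons, and plate as a covariate does not separate them.

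Obox1 ranged over embryos from 237 to 869 CPM (median 499, n = 21) after contralateral ICSI. The range was 342 to 779 CPM (median 410.1, n = 21) after ipsilateral and 113.9 to 512 CPM (median 289.9, n = 13) after equatorial ICSI. Thus 20 of 21 contralateral and 21 of 21 ipsilateral embryos lay above the equatorial median, but the ranges overlapped, as 10 contralateral and 1 ipsilateral embryos lay above every equatorial one. In edgeR's quasi-likelihood test with plate as a covariate, the log2 fold change against equatorial ICSI was 0.76 ± 0.14 (SE, adjusted p = 0.00011) for contralateral ICSI. For ipsilateral ICSI it was 0.54 ± 0.14 (edgeR, adjusted p = 0.0101). The SE of edgeR changes was worked out from the change and its F statistic here and below.

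Obox2 ranged from 65.95 to 279 CPM (median 172) after contralateral and from 108.7 to 252 CPM (median 160.1) after ipsilateral ICSI, against 21.7 to 174 CPM (median 84.7) after equatorial ICSI. Here 10 contralateral and 8 ipsilateral embryos exceeded every equatorial embryo. The log2 fold changes were 0.81 ± 0.17 (edgeR, adjusted p = 0.00070) and 0.74 ± 0.17 (edgeR, adjusted p = 0.00457).

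Obox5 ranged from 956 to 2019 CPM (median 1279) after contralateral, from 949 to 1526 CPM (median 1184) after ipsilateral and from 879 to 1472 CPM (median 1107) after equatorial ICSI. The ranges overlapped over most of their length, with 3 contralateral embryos and 1 ipsilateral embryo above every equatorial one. The contralateral change was 0.24 ± 0.07 on the log2 scale, or 1.18-fold (edgeR, adjusted p = 0.0225). The ipsilateral one was 0.13 ± 0.07 and did not pass (edgeR, adjusted p = 0.317). The contralateral call was lost in the 48 pairs under the mitochondrial limit (0.14, edgeR adjusted p = 0.226) and in a rank-sum test on TPM (0.13, adjusted p = 0.125).

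Obox3 ranged from 60.1 to 554 CPM (median 240.4) after contralateral, from 55.2 to 471 CPM (median 215) after ipsilateral and from 93.5 to 343 CPM (median 146) after equatorial ICSI. Its log2 fold changes against equatorial ICSI, 0.55 ± 0.24 and 0.44 ± 0.24, did not pass the test (edgeR, adjusted p = 0.116 and 0.310). Obox6 ranged from 35.5 to 356 CPM (median 160.3), from 71.8 to 314 CPM (median 181) and from 88.8 to 180.5 CPM (median 155) in the same order of groups. Its equatorial embryos lay closest together, with an SD of 23.6 CPM (n = 13) against 79.9 CPM and 70.9 CPM (n = 21 each), and the log2 fold changes were 0.10 ± 0.20 and 0.33 ± 0.21 (edgeR, adjusted p = 0.822 and 0.396). An adjusted p that misses the threshold does not show that the groups were alike.

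**Figure D1:**
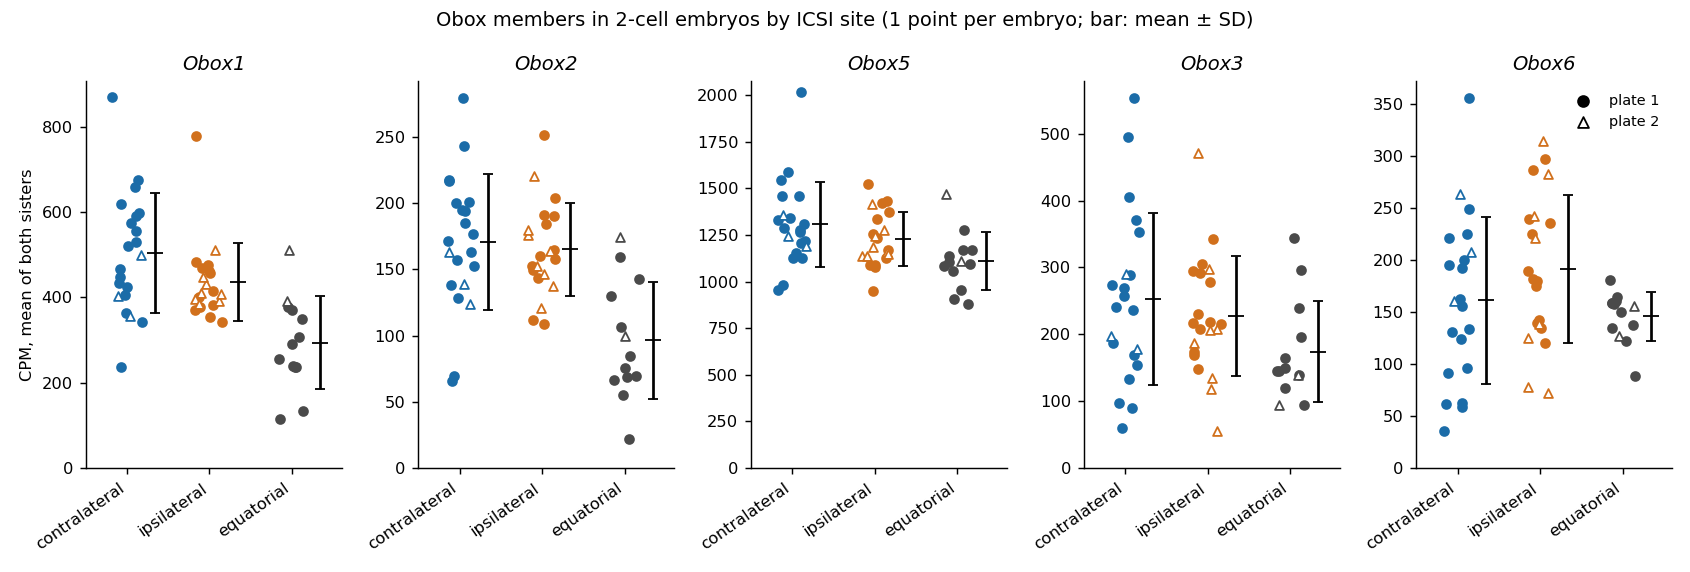
CPM of each member (mean of both sisters) in 55 2-cell embryos by ICSI group, with filled circles for plate 1, open triangles for plate 2 and bars for mean ± SD over both plates. The lowest Obox1 and Obox2 values were those of equatorial embryos of plate 1, down to 113.9 and 21.7 CPM, whereas the 2 equatorial embryos of plate 2 lay within the range of the contralateral ones of both plates.

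In all, 3 of 5 members were called higher after contralateral and 2 of 5 after ipsilateral than after equatorial ICSI, and 0 were called lower. The background was large: of 13141 genes tested, 7.12% were called higher and 6.06% lower after contralateral ICSI, and 3.43% were higher and 3.22% lower after ipsilateral ICSI. Both comparisons share the equatorial embryos. Between the poles edgeR called 0 genes, or 0%, DESeq2 called 0 too, and before adjustment 555 genes had a p below 0.05 in edgeR. The changes of the members between contralateral and ipsilateral ICSI ran from -0.23 ± 0.18 for Obox6 to 0.23 ± 0.12 for Obox1 on the log2 scale.

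Since Obox1 and Obox2 have long stretches in common, the maternal members were also added up before the fit. The sum of Obox1, Obox2 and Obox5 was higher by 0.41 ± 0.09 on the log2 scale after contralateral (edgeR, adjusted p = 0.00062) and by 0.28 ± 0.09 after ipsilateral ICSI (edgeR, adjusted p = 0.0405). The sum of all 5 members gave 0.41 and 0.30 (edgeR, adjusted p = 0.00045 and 0.0196). The sums do not depend on how reads were split between Obox1 and Obox2, but would lack any reads left out for matching both.

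The plates did not show the same values. On plate 1 alone (18, 13 and 11 pairs), the log2 fold changes of Obox1 were 0.97 ± 0.16 and 0.73 ± 0.16, those of Obox2 were 0.99 ± 0.19 and 0.90 ± 0.20, and those of Obox5 were 0.31 ± 0.08 and 0.21 ± 0.09, where edgeR called 16.9% and 8.61% of 12864 genes. There, 15 of 18 contralateral and 10 of 13 ipsilateral embryos had more Obox1 than every equatorial embryo. On plate 2 alone (3, 8 and 2 pairs), Obox1 changed by -0.11 ± 0.19 and -0.12 ± 0.16 and Obox5 by -0.02 ± 0.14 and -0.09 ± 0.12, and edgeR called 0 members and 0 of 15162 genes, with 853 and 906 genes at a p below 0.05 before adjustment. For Obox2 the plate 2 values were -0.01 ± 0.31 and 0.20 ± 0.27. The 2 equatorial embryos of that plate held 392 and 512 CPM of Obox1, both above every equatorial embryo of plate 1, the highest of which was at 376 CPM. A term for the interaction of plate and site gave p = 0.0072 for Obox1 in edgeR (adjusted p = 0.348), 0.0864 for Obox2 and 0.238 for Obox5, and called 3 of 13141 genes, or 0.0228%. The plates may also differ in read layout, as the study describes a paired-end and a single-end dataset of blastomeres. It names no plate for either, but gives the blastocysts, all of which were on plate 2, as single-end. By this, plate 2 would be the single-end and plate 1 the paired-end dataset. The study kept only first reads of the paired-end dataset, cut to a common length. The part of the plate or the read layout in these differences was not tested further, as plate 2 held 2 equatorial pairs.

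**Figure D2:**
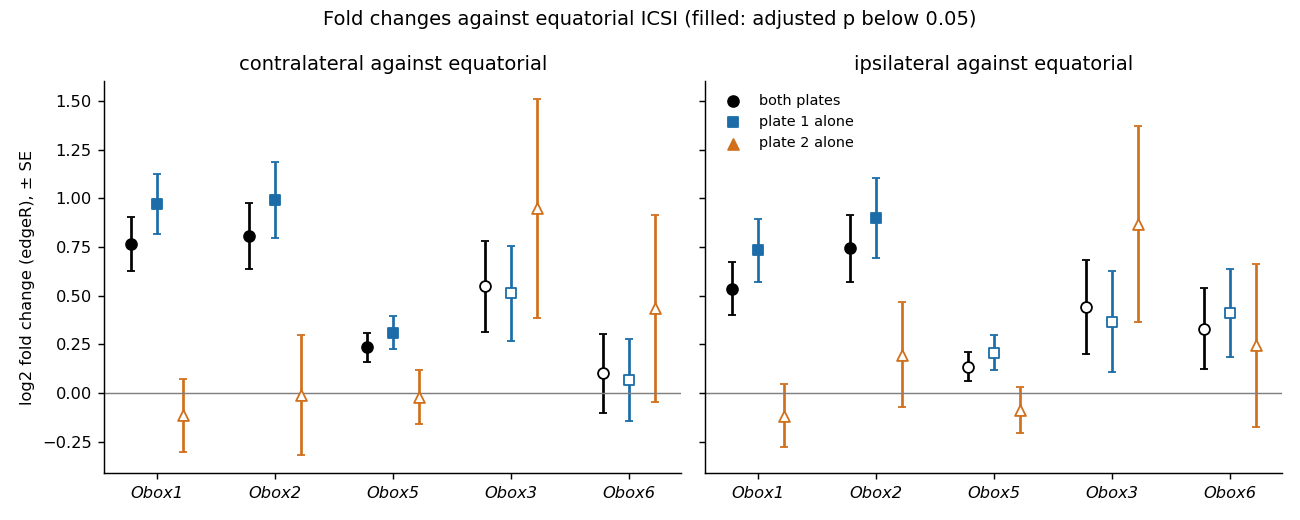
Log2 fold changes of the members against equatorial ICSI, from edgeR fits to both plates, plate 1 alone and plate 2 alone. Bars are standard errors worked out from the change and its F statistic, and filled symbols stand for an adjusted p below 0.05. Obox1 and Obox2 are at 0.97 and 0.99 after contralateral ICSI on plate 1 and at -0.11 and -0.01 on plate 2.

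Depth moved with the groups as well, with fewer detected genes in the equatorial embryos. With the total count and the number of detected genes as covariates, the contralateral changes remained past the threshold, at 0.72 for Obox1, 0.76 for Obox2 and 0.31 for Obox5 (edgeR, adjusted p = 0.00071, 0.00429 and 0.00213, with 9.08% of all genes called). The ipsilateral ones were 0.50, 0.68 and 0.28 and did not pass (edgeR, adjusted p = 0.121, 0.0927 and 0.0725), while the genes called over the whole table fell from 6.65% to 0.464%. The summed cumulus markers had medians of 17.7 CPM after contralateral, 14.8 CPM after ipsilateral and 9.29 CPM after equatorial ICSI, and their part in the result was not tested.

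Obox7, a maternal member outside the rule that was singled out after its values were seen, ranged from 75.8 to 414 CPM (median 205) after contralateral, from 57.7 to 413 CPM (median 171) after ipsilateral and from 33.2 to 246 CPM (median 87.1) after equatorial ICSI. Its log2 fold changes were 1.254 ± 0.22 and 0.77 ± 0.22 (edgeR, adjusted p = 7.6e-05 and 0.0191), the first larger than that of any of the 5 members. With the depth covariates the ipsilateral call was lost (0.84, edgeR adjusted p = 0.104).

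Other genes of genome activation were read from lists. Of 26 tested 2-cell activation genes, which are transcribed in the first wave from the embryonic genome, 5 rose and 0 fell after contralateral ICSI (median log2 fold change 0.25, against -0.00 over all genes tested), and 3 rose and 0 fell after ipsilateral ICSI. Of all genes, 7.12% and 3.43% were called higher in these comparisons. The genes that rose included Zscan4d, a gene of a cluster switched on at the 2-cell stage, at log2 fold changes of 1.03 ± 0.27 and 0.85 ± 0.27 (edgeR, adjusted p = 0.00616 and 0.0415), and Zscan4f at 2.07 ± 0.50 and 1.86 ± 0.49. The study describes Zscan4 as absent from its 110 blastomeres, whereas the counts used here held reads of both genes. Whether the groups differed in their progress through the 2-cell stage was not tested. Arg2, which codes for a mitochondrial arginase, was at 0.63 ± 0.21 and 0.65 ± 0.21 (edgeR, adjusted p = 0.0329 and 0.0479), and Tdpoz3 rose after contralateral ICSI by 1.79 ± 0.56 (edgeR, adjusted p = 0.0226). Of 22 factors of genome activation, a list that also holds both Zscan4 genes, 3 rose and 4 fell after contralateral and 3 rose and 2 fell after ipsilateral ICSI. Among those that fell after contralateral ICSI were the histone demethylase gene Kdm5b, by 0.73 on the log2 scale, and the chromatin remodeller gene Smarca4, by 0.70. Smarca4 also fell after ipsilateral ICSI, by 0.63 on the log2 scale (edgeR, adjusted p = 0.0264). Dppa2, a maternal regulator of 2-cell genes, was higher by 0.58 ± 0.16 after ipsilateral ICSI (edgeR, adjusted p = 0.0183). Of 9 tested homeobox genes outside the family, Sebox, an oocyte homeobox gene, was higher by 0.46 ± 0.14 after ipsilateral ICSI (edgeR, adjusted p = 0.0376), and 0 passed after contralateral ICSI. Of 14 oocyte factors and maternal transcripts, Dppa3 rose by 0.25 ± 0.09 and the growth factor gene Gdf9 fell by 0.31 after contralateral ICSI, and 0 passed after ipsilateral ICSI. Of the 6 blastocyst, 3 cumulus and 1 sperm transcripts tested, 0 passed in either comparison. With the total count and detected genes as covariates, 0 genes of any of these lists were called after ipsilateral ICSI, so that the calls of Zscan4d, Zscan4f, Arg2, Smarca4, Dppa2 and Sebox were lost there. After contralateral ICSI, 3 of 26 2-cell activation genes rose (median log2 fold change 0.094), and of the 22 factors 2 rose and 3 fell.

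Sister blastomeres were then compared with each other. Over all pairs, the median ratio between sisters was below that between blastomeres of different embryos of the same group and plate. Ratios were taken of CPM + 1. The median ratio between sisters was 1.12-fold for Obox5 (1.16-fold between embryos), 1.22-fold for Obox1 (1.28-fold), 1.29-fold for Obox6 (1.61-fold), 1.30-fold for Obox2 (1.40-fold) and 1.33-fold for Obox3 (1.64-fold). Within single ICSI groups this order was turned in 3 cases. Sisters differed more than embryos for Obox6 after equatorial ICSI (1.505-fold against 1.312-fold), for Obox5 after equatorial ICSI (1.193-fold against 1.176-fold) and for Obox1 after ipsilateral ICSI (1.22-fold against 1.18-fold).

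The levels of the members differed between embryos beyond the spread between sisters. By the well labels, sisters lay in neighbouring wells of the same row. Embryo and well position can therefore not be told apart, here or in the intraclass correlation below. In an edgeR test of the embryo as a factor within ICSI group and plate (49 degrees of freedom), 5 of 5 members were called, against 10.8% of 11712 genes. The adjusted p was 1.6e-07 for Obox1, 3.1e-06 for Obox3, 8.1e-05 for Obox6, 0.00051 for Obox5 and 0.0447 for Obox2. With all 62 pairs that have both sisters, 4 were called against 3.51% of genes, with Obox2 at an adjusted p of 1 in edgeR. The intraclass correlation of log2(CPM + 1) between sisters was 0.64 for Obox1, 0.56 for Obox3, 0.54 for Obox6, 0.38 for Obox5 and 0.30 for Obox2, against a median of 0.12 over 9244 genes with a mean of at least 10 CPM. Of these genes, 99.2% lay below Obox1 and 82.2% below Obox2. Neither background was matched in level to the members, whose means ran from 151 to 1230 CPM, so the part of abundance was not tested. Genes outside the family were called in the main embryo test too. They were 4 of 6 oocyte and 2-cell markers, 6 of 14 oocyte factors and maternal transcripts and 10 of 26 2-cell activation genes. The counts were 6 of 22 for factors of genome activation, 2 of 8 for other homeobox genes and 0 of 6 for blastocyst markers.

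Single pairs departed from this. In 1 contralateral pair of plate 2, Obox2 was at 226 CPM in one sister and at 22.3 CPM in the other, a 9.71-fold difference in CPM + 1, with 11036 detected genes in one of these sisters and 13109 in the other. In another contralateral pair, Obox3 was at 105.7 and 14.4 CPM (6.94-fold in CPM + 1), and in a further one Obox6 was at 97.2 and 20.2 CPM (4.64-fold in CPM + 1). The widest pairs of Obox1 and Obox5 differed by 2.12-fold and 1.70-fold. Sisters differed by more than 2-fold in 8 of 55 pairs for Obox3, 7 for Obox2, 7 for Obox6, 1 for Obox1 and 0 for Obox5.

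**Figure D3:**
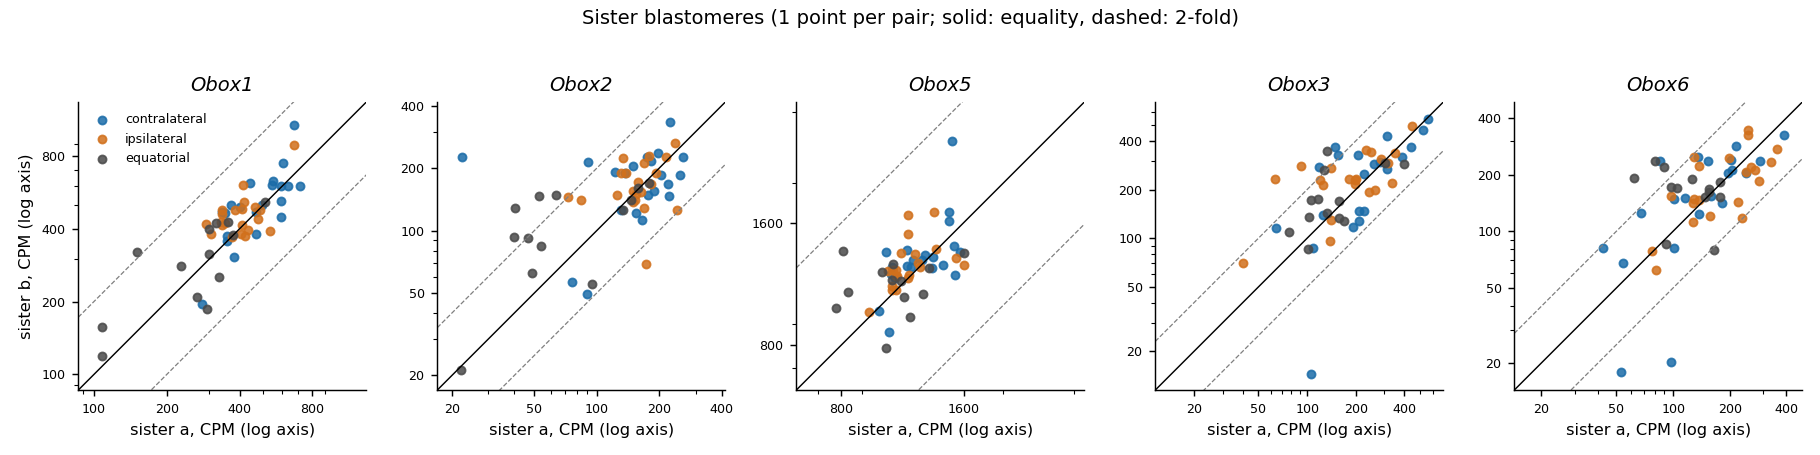
CPM of each member in sister a against sister b on log axes for 55 pairs, coloured by ICSI group, with equality as a solid line and 2-fold differences as dashed lines. All 55 pairs lie within 2-fold for Obox5, and 8 lie outside for Obox3; the letters a and b carry no order.

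When a sister had more of one member it often had more of another. The same sister was higher for Obox1 and Obox5 in 45 of 55 pairs, the highest count, and for all 5 members in 21 pairs. Other combinations ran from 35 (Obox5 and Obox6) to 40 pairs (Obox2 and Obox3). How often genes outside the family go together in this way was not tested. Counted against depth, the sister with the larger total count held more Obox1 CPM in 27, Obox2 in 30, Obox5 in 21, Obox3 in 25 and Obox6 in 29 of 55 pairs.

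The size of the sister difference did not differ detectably by ICSI site. The mean absolute log2 difference for Obox5 was 0.28 ± 0.19 (SD, n = 13 pairs) after equatorial, 0.19 ± 0.17 (n = 21) after contralateral and 0.15 ± 0.15 (n = 21) after ipsilateral ICSI. Its equatorial and ipsilateral values gave the smallest of 15 p-values, 0.038 in a 2-sided permutation test with 100000 resamples (adjusted p = 0.571 over the 15). For Obox2 the means were 0.66 ± 0.60, 0.58 ± 0.67 and 0.38 ± 0.37 in the same order, and the largest difference, between equatorial and ipsilateral ICSI, had p = 0.098 (adjusted p = 0.572, permutation test). For Obox1, Obox3 and Obox6 the p-values ran from 0.175 to 0.976 before adjustment.

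Across embryos, Obox1, Obox2 and Obox5 varied together, while Obox3 and Obox6 had weak correlations with them and with each other. Over 55 embryos, with the mean of each ICSI group and plate removed, the Spearman correlation of log2(CPM + 1) was 0.85 between Obox1 and Obox2, whose reads share sequence. It was 0.64 between Obox1 and Obox5 and 0.64 between Obox2 and Obox5, and 0.69 between Obox7 and each of Obox1 and Obox2. Obox6 stood at -0.12, -0.11 and -0.13 with Obox1, Obox2 and Obox5, and at 0.24 with Obox3. Obox3 had 0.22 to 0.24 with Obox1, Obox2 and Obox5 and 0.17 with Obox7. With Zscan4d, Obox1 stood at 0.53, Obox2 at 0.50, Obox3 at 0.47, Obox5 at 0.31 and Obox6 at -0.085. Obox6 had -0.53 with Bmp15, an oocyte growth factor gene, 0.32 with Zfp352, a 2-cell activation gene, and -0.13 with Gdf9. The signs were the same for Obox3, at -0.39 with Bmp15, 0.38 with Zfp352 and -0.33 with Gdf9. All these points share libraries, and scaling to CPM ties genes to each other: against the log2 total count the members stood at -0.42 (Obox5) to 0.17 (Obox6). They are descriptions over embryos, with no test.

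**Figure D4:**
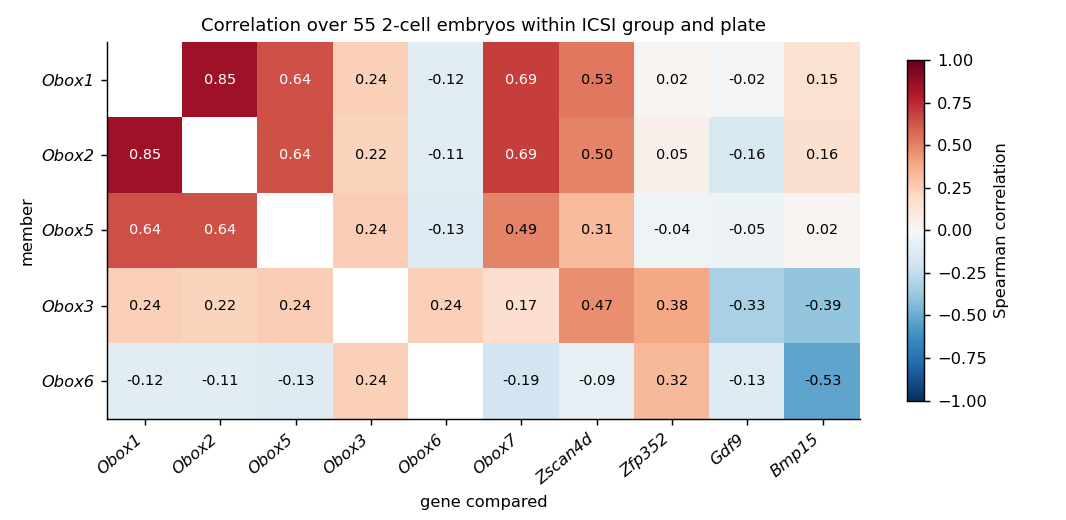
Spearman correlation of each member with the other members and with 5 further genes over 55 2-cell embryos, after removing the mean of each ICSI group and plate. Obox1, Obox2, Obox5 and Obox7 lie at 0.49 to 0.85 with each other, and Obox6 at -0.19 to -0.11 with them.

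Among 9256 genes with a mean of at least 10 CPM, Obox genes left out, those whose pattern over the embryos was most like each member were named. For Obox5 they were Cks1b, a cofactor of cyclin-dependent kinases (Spearman correlation 0.88), and the oocyte maturation genes Omt2a (0.87) and Omt2b (0.84). For Obox1 they were Commd3 (0.85), C87414 (0.83) and Gnpda2 (0.83), and for Obox2 A730082K24Rik (0.85), Commd3 (0.83) and Myl12a (0.82). For Obox3 they included Gla (0.68), which codes for a lysosomal galactosidase, and the splicing factor gene Prpf38a (0.67). For Obox6 they were Mrps30 (0.70), of the mitochondrial ribosome, Pusl1 (0.70) and Mdh2 (0.70), mitochondrial malate dehydrogenase.

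In blastocysts the members had almost no reads, apart from traces of Obox6. Over 69 blastocysts with 65761549 counts, 0 reads fell on Obox1 and 0 on Obox5, 3 on Obox2 (all in 1 twin) and 1 on Obox3 (in 1 twin). The floor of 3 counts in all blastocysts corresponds to 0.0456 CPM, so Obox5, at a pooled 1210.3 CPM in blastomeres, was at least 26531-fold higher there, and Obox1, at 427 CPM, at least 9351-fold. With the upper 95% Poisson limit of 0 reads in place of this floor, the lower limits were 21577-fold and 7605-fold. For Obox2 the pooled ratio was 3365-fold (exact Poisson interval, 95%, 1151 to 16315) and for Obox3 it was 14821-fold (2660 to 585383). These intervals cover counting error only, as the libraries hold no molecular identifiers. In a whole blastocyst, fewer cells with a transcript and less transcript per cell cannot be told apart.

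Obox6 had 100 reads in 17 of 69 blastocysts, with 1 to 15 reads in each, or 1.52 CPM (95% Poisson interval 1.24 to 1.85) against 174 CPM in blastomeres, a 114.5-fold difference (94.1 to 141). Of the 100 reads, 83 came from 12 of 38 twins and 17 from 5 of 31 intact blastocysts. The summed oocyte and 2-cell markers were higher in twins too, with a median of 532 CPM (314 to 927) against 46.8 CPM (0 to 403) in intact blastocysts, where Oosp1 was at 0. In twins Oosp1 was at 0 after contralateral and ipsilateral ICSI, and Bmp15 after ipsilateral and equatorial ICSI. The sum is not split by gene here, so it does not show that oocyte transcripts in general were kept in twins. The summed 2-cell activation genes had medians of 16.4 and 1.88 CPM, and the part of either in the result was not tested. Both twins had reads in 2 of 19 twin pairs, 1 twin had reads in 8 and neither in 9. By ICSI group, intact blastocysts held 0 reads in 11 contralateral, 4 in 8 ipsilateral and 13 in 12 equatorial ones, and the twins held 12, 26 and 45 reads.

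None of the members passed the filter on low counts in the comparisons between ICSI groups or between twin and intact blastocysts, with at most 15 reads in a library. Of 10995 genes in twins, edgeR called 0 (0%) between contralateral and equatorial ICSI, with 728 at a p below 0.05 before adjustment, and DESeq2 called 6. Of 9165 genes in intact blastocysts, edgeR called 0 with 629 before adjustment, and DESeq2 called 1. When every gene with a count was kept, the fitted change of Obox6 between contralateral and equatorial ICSI in intact blastocysts was -3.09 ± 0.99 on the log2 scale (edgeR, adjusted p = 0.0887), a value that depends on the prior count, as the contralateral group had 0 reads. Between twin and intact blastocysts, where 40.5% of 10689 genes were called, it was 1.57 ± 0.69 (edgeR, adjusted p = 0.0805), and 20.2% of genes were higher and 20.3% lower in twins. Neither passed the threshold.

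Between 2-cell embryos and intact blastocysts, 5 of 5 members were called higher in 2-cell embryos by edgeR, in a comparison in which 82.9% of 15682 genes were called and 48.8% were higher and 34.1% lower in 2-cell embryos. The members passed the filter on low counts through the 2-cell embryos only, and Obox1, Obox2, Obox3 and Obox5 had 0 reads in intact blastocysts. Their calls were therefore fixed in advance and add nothing to the read counts given above. The fitted log2 change of Obox6 was 7.93 ± 0.29, and 8.30 ± 0.44 on plate 2 alone. All blastocysts were on plate 2, so over both plates stage goes partly with the plate. On plate 2 alone both stages are present, but the study mapped blastomeres and blastocysts separately, which cannot be told apart from stage. All 26 tested 2-cell activation genes and all 15 tested oocyte factors and maternal transcripts were called in the same direction as the members, and so were 7 of 14 tested homeobox genes outside the family, while 6 of these 14, Cdx2 among them, went the other way. The activation and oocyte lists were picked as genes of the 2-cell stage and the oocyte, so their direction lends the members no support.

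**Figure D5:**
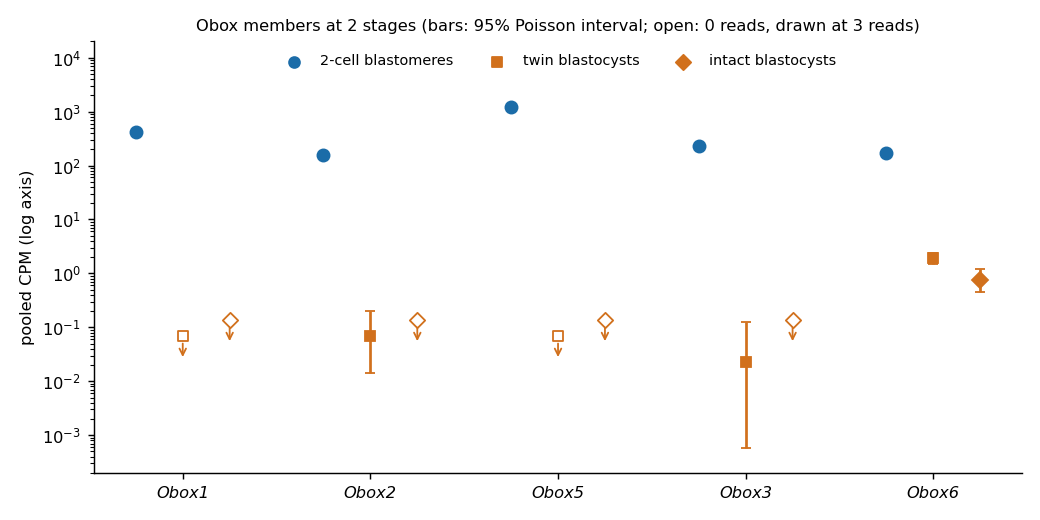
Pooled CPM of each member on a log axis in 2-cell blastomeres (circles), twin blastocysts (squares) and intact blastocysts (diamonds), with 95% Poisson intervals; open symbols stand for 0 reads and are drawn at the value of 3 reads. Obox6 is at 1.90 CPM in twins and 0.768 CPM in intact blastocysts, and the other members lie at or below 0.136 CPM in blastocysts.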

How the data were processed

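The authors sequenced single blastomeres and blastocysts with a SMART-Seq Single Cell kit, which does not mark strand, and deposited raw read counts per gene. The submitters' processing notes name FastQC 0.12.1, Trimmomatic 039 and STAR 2.7.10b, with GRCm38. The counts hold no molecular identifiers. The members and the gene lists were chosen with earlier results of these data known.

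Of 150 labelled blastomeres, 125 had a column used here. Of 62 pairs with both sisters, 55 (110 blastomeres) had at least 9500 detected genes in each and made up the main comparisons. Counts of sisters were added per embryo, since the embryo is the replicate, and tested with edgeR 4.0.16 (quasi-likelihood, TMM, filterByExpr, plate as covariate) with Benjamini-Hochberg adjustment over all genes and a threshold of 0.05. The SE of an edgeR change was its absolute log2 fold change divided by the square root of its F statistic, not an output of the model. The embryo term was tested on single blastomeres. CPM were counts scaled to the library total, and TPM used exonic lengths of GENCODE M21. Sister differences were compared by 2-sided permutation tests. Named genes were the 5 members, up to 4 called genes per list and comparison with the largest change, and the 3 genes outside the family likest to each member, of which 1 is not reported here. The fits were tested on simulated data. Alternatives were DESeq2 1.42.0, other scaling and filters, rank-sum tests, depth covariates, other sets of pairs, and single plates; plate 2 alone and the plate by site interaction were chosen after seeing the data.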

Additional observations from a re-analysis of the deposited data

Results flagged for a closer look

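Obox2 in twin blastocysts after ipsilateral ICSI was set apart because 1 embryo, at 1.42 CPM, stood away from the other 6, which had 0 reads. Obox3 in twin blastocysts after contralateral ICSI was set apart in the same way, with 1 embryo at 0.386 CPM and 0 reads in the other 5. These rest on 3 reads and 1 read. Among 6 groups looked at, chance sets apart about 1 in 20 where values spread continuously, but where all other embryos have 0 reads any read stands apart by construction. Outside the sister pairs, 12 of 15 blastomeres held reads of all 5 members, although the main comparisons did not use them. Those with both sisters in the table entered the alternative with all 62 pairs. Their median was 278 CPM for Obox1, 81.9 CPM for Obox2, 1068 CPM for Obox5, 130.2 CPM for Obox3 and 51.1 CPM for Obox6, and the lowest values were 18.3, 0, 379, 0 and 0 CPM.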

How the results depend on the processing

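The alternatives gave values between the ICSI groups of 2-cell embryos for single members and for the sum of all members. Of these, 155 kept their direction and their side of the threshold, 5 lost the threshold with the same direction and 8 changed sign. A value that changed sign was not counted among the 5, even where its call was lost too. That was so on plate 2 alone for Obox1, Obox2 and Obox5 after contralateral and for Obox1 after ipsilateral ICSI, each against equatorial ICSI. On plate 2 alone, the contralateral against equatorial log2 fold changes were -0.11 for Obox1, -0.011 for Obox2 and -0.020 for Obox5. The ipsilateral against equatorial ones were -0.12 for Obox1 and -0.086 for Obox5, and the contralateral against ipsilateral ones were -0.21 for Obox2 and 0.19 for Obox6. In that set 0 members were called against equatorial ICSI after either polar ICSI. With depth covariates, 0 members were called after ipsilateral ICSI and Obox6 after contralateral ICSI was at -0.059. Sister differences on plate 1 alone changed sign for Obox1 between contralateral and ipsilateral ICSI (0.017), for Obox3 between ipsilateral and equatorial ICSI (-0.00315) and for Obox6 between contralateral and equatorial ICSI (0.10). The cause was not tested. The stage comparison and the count of members called by the embryo term kept their side under every alternative run, apart from Obox2 with all pairs. No paired analysis was possible because embryo numbers are not shared between the ICSI groups. Depth limits the blastocysts, where members did not pass the filter on low counts.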
